A study of Homo sapiens with 12 samples.

Results

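Aminoacyl-tRNA synthetases are the enzymes that attach each amino acid to its own tRNA, and the abundance of their messenger RNAs was followed here while RNase L was, or was not, available to act. The genes were taken by symbol: 36 synthetase genes, of which 20 encode cytosolic enzymes and 16 encode mitochondrial enzymes (symbols ending in 2), out of 58671 gene rows in the deposited table. Of the 36, 32 reached 1 FPKM (fragments counted per kilobase of transcript, scaled to library size) in at least 1 group and were analysed, 18 cytosolic and 14 mitochondrial, and each of those 32 had at least 1 FPKM in every group. RNA was sequenced from A549, a human lung carcinoma cell line, in its parental form (WT) and in an RNase L knockout derivative (RLKO). Each genotype was studied untreated and 6 h after transfection of 500 ng/ml poly(I:C), a double-stranded RNA made by synthesis, which made 4 groups of 3 samples each. WT cells carried RNase L and no other alteration was named for them, RLKO cells differed from WT by the RNase L knockout, and both were grown in the same medium. Whether the RLKO line was 1 clone, and which part of the gene was edited, were not given in the sources used here.

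RNase L is a latent endoribonuclease that is switched on by 2-5A, which the oligoadenylate synthetases make when they meet double-stranded RNA, and it then cleaves single-stranded cellular and viral RNA. Cytosolic synthetases charge the tRNAs used in the translation of nuclear-encoded messages, whereas the mitochondrial enzymes are made in the cytosol, imported, and serve the ribosomes of the organelle. Many cytosolic synthetase genes are known targets of ATF4, the transcription factor of the amino acid response, and WARS is also known as an interferon-inducible gene.

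The promoter stretches that carry the core of the amino acid response element are shown because 6 cytosolic members share them. The core was searched as TGATGNAA on both strands, from 250 bases before to 50 bases after the RefSeq transcription start (GRCh38.p14), and 30 of the 36 members had an entry. In the lines that follow each stretch is written 5′ to 3′ on the strand of its gene and the capitals mark the matching bases.

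AARS, chr16:70289675-70289704, minus strand: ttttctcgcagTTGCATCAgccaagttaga

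CARS, chr11:3057407-3057436, minus strand: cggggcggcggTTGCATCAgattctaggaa

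IARS, chr9:92293692-92293721, minus strand: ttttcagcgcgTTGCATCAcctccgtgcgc

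MARS, chr12:57488053-57488082, plus strand: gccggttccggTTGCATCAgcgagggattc

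NARS, chr18:57621804-57621833, minus strand: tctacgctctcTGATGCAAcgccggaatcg

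TARS, chr5:33440956-33440985, plus strand: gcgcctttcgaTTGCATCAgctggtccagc

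In 5 of these 6 the strand of the gene read TTGCATCA, and NARS alone among the 6 read TGATGCAA. The first matching base lay at position -187 in AARS, counted from the start base as 0, at -13 in IARS, -4 in MARS, -2 in CARS, 2 in TARS and 14 in NARS, so the matches of TARS and NARS were within the transcribed sequence. The core was found in 6 of 16 cytosolic members with an entry, in 1 of 14 mitochondrial members (YARS2), and in 3.62% of 35116 RefSeq promoters of the same length. All 6 cytosolic matches fell among the 10 promoters of cytosolic genes listed as ATF4 targets, and 0 of the 6 other cytosolic promoters held one. That list was drawn up with earlier results of these data known. The core of the interferon-stimulated response element, GAAA and GAAA with 2 free bases between them, was found on either strand in 1 member, EARS2, and in 3.57% of all promoters, so no member held both motifs. A match is a run of letters and was not tested as a binding site.

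The deposited table held 1 FPKM value per gene and group, pooled over the samples, so neither a spread between samples nor a read depth stood behind a value. Tests were those of the authors' deposited table, poly(I:C) against untreated within each genotype, and "rose" and "fell" are used only for a q-value under 0.05. No comparison between genotypes was tested. All log2 changes are on the scale of the ERCC spike-in RNAs after adding 1 FPKM. The q-values come from the authors' own comparison, whose library scaling was not given, so they do not test the spike-in-scaled sizes printed beside them. Calls were counted as lower or higher by the sign of the spike-in-scaled change. The scale factor from the FPKM of the spike-in RNAs was 1.53 times as high in treated as in untreated WT (48 of 49 ERCC rows higher). In RLKO it was 1.13 times as high (32 of 49). On the spike-in scale 12181 protein-coding genes had a median log2 change of -0.70 in WT and -0.24 in RLKO, against -0.17 and -0.10 in FPKM as deposited. The epithelial keratins KRT8 and KRT18 were between 256 and 944 FPKM in every group, but EPCAM did not exceed 1.03. PTPRC and CD3E, of leukocytes, did not exceed 0.0421, and the endothelial genes PECAM1, VWF and CDH5 did not exceed 0.165. Of the fibroblast genes, COL1A1 stood at 6.31 and 7.17 FPKM in untreated and treated WT and at 2.59 and 2.06 FPKM in RLKO, and COL3A1 and PDGFRB did not exceed 0.577.

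Before treatment the cytosolic synthetase transcripts were far more abundant than the mitochondrial ones, and this order held in both genotypes. In untreated WT cells the 18 cytosolic members ran from 42.9 FPKM (FARSA) through a median of 119 to 552 FPKM (TARS), and the 14 mitochondrial members from 1.5 (PARS2) through 18.6 to 68.4 FPKM (IARS2). The medians in untreated RLKO cells were 109 FPKM for the cytosolic and 20.5 FPKM for the mitochondrial members, and protein-coding genes as a whole had medians of 13.2 and 13.5 FPKM. Of the 18 cytosolic transcripts, 14 stood above the highest mitochondrial one in untreated WT, and 13 of the 14 mitochondrial transcripts stood below the lowest cytosolic one; IARS2 was the exception. After poly(I:C) the cytosolic median was 52.3 FPKM in WT against 99.8 FPKM in RLKO, and the mitochondrial median was 13.2 FPKM in WT and 16.6 FPKM in RLKO.

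**Figure D1:**
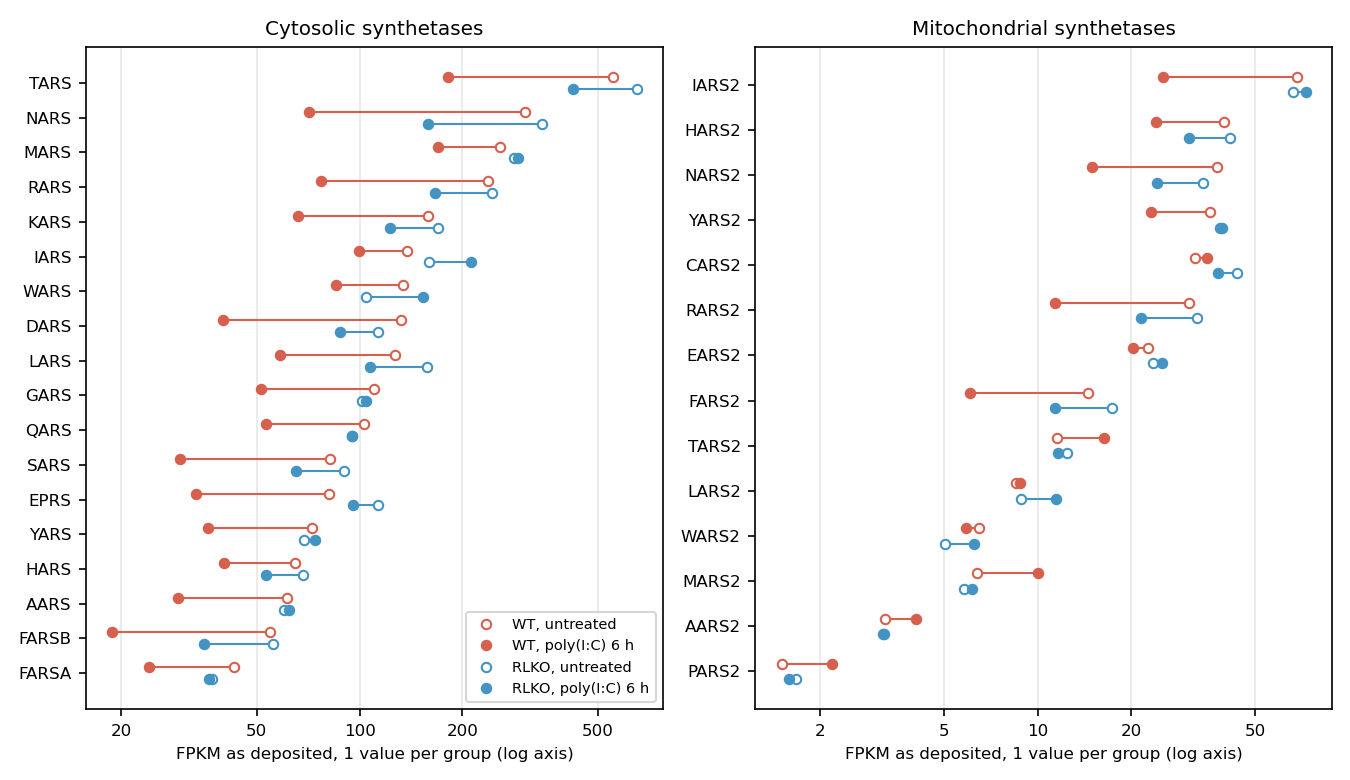
FPKM as deposited (horizontal log axis, a separate scale in each panel) of the 18 cytosolic and 14 mitochondrial synthetases, with open circles for untreated and filled circles for poly(I:C)-treated cells, red for WT and blue for RLKO; each circle is 1 pooled value and has no error bar. In WT every cytosolic filled circle lies to the left of its open circle, whereas 6 mitochondrial members (CARS2, TARS2, LARS2, MARS2, AARS2 and PARS2) lie to the right.

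In WT cells poly(I:C) was followed by lower levels of the cytosolic synthetase transcripts throughout the class, and 2 members of the family passed the authors' test. NARS, which charges tRNA with asparagine (chromosome 18, 57600656 to 57622213, GRCh38), stood at 305 FPKM in untreated and 71.1 in treated WT cells, and at 343 and 159 FPKM in RLKO. It was lower after treatment in both genotypes, and treated WT had the lowest of the 4 values. NARS fell by 2.69 on the log2 scale in WT, to 15.5% of the untreated level, with q = 0.0236 in the authors' deposited table. IARS2, the mitochondrial isoleucyl-tRNA synthetase (chromosome 1, 220094102 to 220148041), stood at 68.4 and 25.3 FPKM in untreated and treated WT cells, and at 66.2 and 72.8 FPKM in RLKO. Treated WT stood apart from the other 3 groups, which lay close together. IARS2 fell by 2.00 on the log2 scale in WT with q = 0.0442 in the authors' deposited table, and its value in RLKO was -0.04. In FPKM as deposited, without spike-in scaling, the WT log2 changes of NARS and IARS2 were -2.08 and -1.40.

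These 2 calls were the only ones among the 32 analysed members in WT, and none rose. Over all analysed protein-coding genes, 3.09% were called lower and 4.27% higher in WT. With a threshold of 0.1 for the q-values of the authors' deposited table the count of lower members was 7 (5.69% of protein-coding genes), adding DARS, FARSB, LARS, SARS and RARS2. At an unadjusted p under 0.05 in that table it was 15, of which 12 were cytosolic (12.1% of protein-coding genes). In size, all 18 cytosolic members had a log2 change of -1 or lower in WT, against 6 of 14 mitochondrial members and 37% of protein-coding genes. The median log2 change in WT was -1.70 over the cytosolic members and -0.69 over the mitochondrial members, beside -0.70 over protein-coding genes. Summed over the class on the spike-in scale, 28.0% of the untreated cytosolic synthetase RNA was measured after treatment in WT, and 42.5% of the mitochondrial. In FPKM as deposited these shares were 42.9% and 65.1%.

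After NARS, the lowest cytosolic values in WT belonged to DARS, RARS and TARS, and none of these was called. DARS, the aspartyl-tRNA synthetase, stood at 133 FPKM in untreated and 39.9 in treated WT cells, and at 113 and 87.8 FPKM in RLKO. Treated WT was again the lowest group, with a log2 change of -2.31 in WT (q = 0.0609 in the authors' deposited table) and -0.54 in RLKO. RARS, which charges tRNA with arginine, stood at 238 and 76.9 FPKM in WT and at 245 and 166 FPKM in RLKO. Its log2 changes were -2.23 in WT and -0.73 in RLKO, with q = 0.178 for WT in the authors' deposited table. TARS, for threonine, was the most abundant synthetase transcript in untreated cells, with 552 FPKM in WT and 648 FPKM in RLKO, and stood at 181 and 421 FPKM after treatment. Its log2 changes were -2.21 and -0.80. FARSB (-2.08), SARS (-2.03), EPRS (-1.87), KARS (-1.85), LARS (-1.71), GARS (-1.69), AARS (-1.63), YARS (-1.60), QARS (-1.55), FARSA (-1.40) and HARS (-1.28) lay between these values and the smallest changes of the class.

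At the other end of the cytosolic class were IARS, MARS and WARS. IARS, for isoleucine, stood at 138 FPKM in untreated and 99.5 in treated WT cells, and at 160 and 212 FPKM in RLKO. Treated RLKO had the highest of the 4 values and treated WT the lowest, with log2 changes of 0.23 and -1.07. MARS, for methionine, stood at 257 and 169 FPKM in WT and at 284 and 291 FPKM in RLKO. Its log2 changes were -1.21 in WT and -0.14 in RLKO. WARS, the interferon-inducible tryptophanyl-tRNA synthetase, stood at 134 and 85.4 FPKM in WT, and at 104 and 154 FPKM in RLKO. Its log2 change was -1.25 in WT (q = 0.613 in the authors' deposited table) and 0.38 in RLKO, the highest RLKO value of the family and at percentile 95.8 of protein-coding genes, yet not called there (p = 0.244 in the same table). The smallest cytosolic change in WT, that of IARS, was still lower than the protein-coding median, as were all 18.

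The values of the mitochondrial synthetases in WT were widely spread. IARS2, RARS2, NARS2, FARS2, HARS2 and YARS2 had log2 changes of -1.20 or lower, and the other 8 members lay between -0.74 and 0.03. RARS2, for arginine, stood at 30.7 FPKM in untreated and 11.3 in treated WT cells, and at 32.4 and 21.5 FPKM in RLKO, which gave log2 changes of -1.94 and -0.74 (q = 0.0949 for WT in the authors' deposited table). NARS2, for asparagine, stood at 37.7 and 14.99 FPKM in WT and at 34.1 and 24.2 FPKM in RLKO, with log2 changes of -1.86 and -0.65. FARS2, for phenylalanine, stood at 14.5 and 6.07 FPKM in WT and at 17.4 and 11.3 FPKM in RLKO, with log2 changes of -1.68 and -0.74. In these 3 genes both treated groups were below both untreated groups, and treated WT was the lowest.

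MARS2, PARS2 and TARS2 had the highest values. MARS2, for methionine, stood at 6.4 FPKM in untreated and 10.0 in treated WT cells, and at 5.82 and 6.16 FPKM in RLKO. PARS2, for proline, stood at 1.5 and 2.19 FPKM in WT and at 1.67 and 1.59 FPKM in RLKO. TARS2, for threonine, stood at 11.6 and 16.4 FPKM in WT and at 12.4 and 11.6 FPKM in RLKO. In FPKM as deposited treated WT was the highest group for all 3, but on the spike-in scale their log2 changes in WT were 0.03, -0.05 and -0.10, and none was called in the authors' deposited table (q of 0.427 or more). The direction for the 6 mitochondrial members whose FPKM was higher after treatment in WT depends on the scale: 1 of the 6 was above 0 on the spike-in scale. No cytosolic member had a higher FPKM after treatment in WT, where 41.8% of protein-coding genes did. The remaining mitochondrial values in WT were -0.74 for EARS2, -0.65 for WARS2, -0.52 for LARS2, -0.47 for CARS2 and -0.22 for AARS2.

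In RLKO cells 16 of 18 cytosolic and 12 of 14 mitochondrial members had a negative log2 change on the spike-in scale. The deposited FPKM, without this scaling, gave counts of 11 and 7. The protein-coding median was also below 0, at -0.24 with this scaling and -0.10 without it. A negative sign was thus not particular to the members. No member was called in the authors' deposited table, where the lowest q among them was 0.9995; 0.0246% of protein-coding genes were called lower and 0.821% higher in RLKO. With a threshold of 0.1 the count was still 0 (0.041% of protein-coding genes). At an unadjusted p under 0.05 in the authors' deposited table the count was 1, NARS (p = 0.0369), beside 1.86% of protein-coding genes. NARS was also the 1 member with a log2 change of -1 or lower in RLKO (-1.28), where 5.34% of protein-coding genes were that low. The median log2 change was -0.48 over the cytosolic and -0.16 over the mitochondrial members, beside -0.24 over protein-coding genes, so 10 of 18 cytosolic and 6 of 14 mitochondrial members were below the protein-coding median. The other 7 cytosolic and 7 mitochondrial members had a higher FPKM as deposited after treatment in RLKO, as did 36.5% of protein-coding genes. LARS2, for leucine, stood at 8.54 and 8.75 FPKM in WT and at 8.88 and 11.5 FPKM in RLKO, and its RLKO value of 0.17 was the highest of the mitochondrial members. WARS2, for tryptophan, followed with 0.12, from 5.02 to 6.26 FPKM. YARS, for tyrosine, was the third of the cytosolic members in RLKO, with 68.7 FPKM untreated and 73.9 FPKM treated and a log2 change of -0.07, against 72.6 and 35.9 FPKM in WT.

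**Figure D2:**
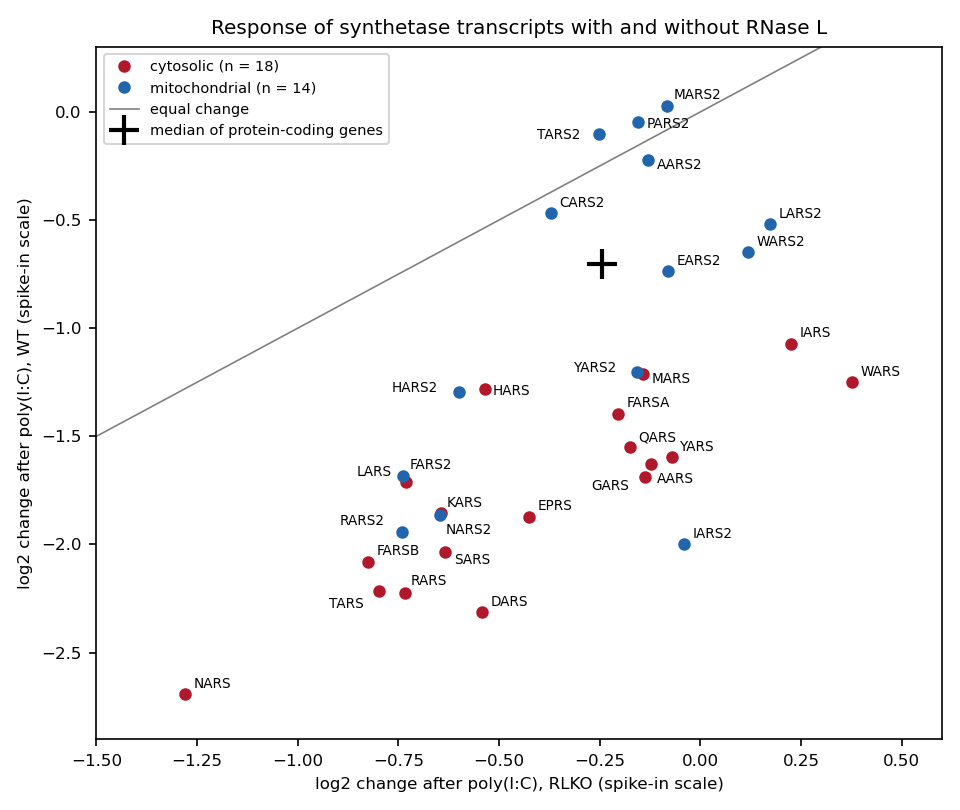
Log2 change after poly(I:C) in WT (vertical) against that in RLKO (horizontal), both on the spike-in scale with 1 FPKM added, for 18 cytosolic (red) and 14 mitochondrial (blue) synthetases, 1 pooled value per gene and axis; the grey line marks equal change and the cross the protein-coding medians (-0.70 and -0.24). All 18 cytosolic members lie under the line, and MARS2, PARS2 and TARS2 lie above it.

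The value in WT was below that in RLKO for all 18 cytosolic members and 11 of 14 mitochondrial members. The same held for 8926 of 12181 protein-coding genes, so this direction is not particular to the class. The difference of the log2 changes, WT minus RLKO, had a median of -1.41 over the cytosolic and -0.69 over the mitochondrial members, beside -0.47 over protein-coding genes, and it was not tested. It was -1 or lower in 16 of 18 cytosolic and 4 of 14 mitochondrial members (24.1% of protein-coding genes). Among protein-coding genes this share went up with level in untreated RLKO cells. It was 40.9% at 30 to 100 FPKM, 66.9% at 100 to 300 FPKM and 85.4% at 300 FPKM or more. In these ranges, which held all 18 cytosolic members, 6 of 7, 8 of 9 and 2 of 2 of them were that low. Their medians were -1.38, -1.45 and -1.42, beside -0.87, -1.26 and -1.63 over protein-coding genes. At 30 to 100 FPKM 4 of 6 mitochondrial members were that low. Untreated RLKO also enters the difference. HARS, the histidyl enzyme, had the smallest cytosolic difference, -0.74, and LARS followed with -0.98. IARS2 had the largest difference of the family, -1.96, then DARS (-1.77) and WARS (-1.63). TARS2 (0.15), MARS2 (0.11) and PARS2 (0.11) were the only analysed members with a positive difference on the spike-in scale; in FPKM as deposited 5 mitochondrial members, and no cytosolic one, were not below 0.

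Set side by side without the untreated cells, the treated groups gave the same order. On the spike-in scale all 18 cytosolic members and 10 of 14 mitochondrial members were lower in treated WT than in treated RLKO, as were 64.3% of protein-coding genes, and the counts were 18 and 10 in FPKM as deposited (57.7%). The median log2 difference between the treated groups, WT minus RLKO, was -1.15 for the cytosolic, -0.45 for the mitochondrial members and -0.25 for protein-coding genes. EPRS, the bifunctional glutamyl- and prolyl-tRNA synthetase, had the largest one, -1.63: it stood at 33.1 FPKM in treated WT and 95.4 in treated RLKO, from 81.3 and 114 FPKM untreated. By their medians the untreated groups differed little, with 0.23 and 0.22 for the 2 classes and 0.24 for protein-coding genes. In FPKM as deposited these medians were -0.06, -0.06 and -0.01. On the spike-in scale 16 of 18 cytosolic and 13 of 14 mitochondrial members were higher in untreated WT (78.2% of protein-coding genes). Single members ran from -0.19 (EPRS) to 0.65 (WARS), with 0.51 for DARS. The treated groups differed by -1.26 for DARS and -0.98 for WARS, smaller than their differences of the log2 changes (-1.77 and -1.63).

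Transcripts that were abundant before treatment tended to have the lower values in WT. To avoid sharing a group with the WT change, level was taken from untreated RLKO cells. Pearson's r across genes between the WT change and the log level was -0.39 over the 18 cytosolic, -0.73 over the 14 mitochondrial and -0.77 over all 32 members, which mixes classes that differ in level. It was -0.64 over protein-coding genes. These are given as a description since the genes share libraries and scaling. Protein-coding genes at 3 to 10 FPKM there had a median log2 change of -0.45 in WT, those at 10 to 30 FPKM -0.78, those at 30 to 100 FPKM -1.25, those at 100 to 300 FPKM -1.90 and those above -2.40. Both classes of synthetase were represented at 30 to 100 FPKM, and there they did not separate: 7 cytosolic members had a median of -1.60 and 6 mitochondrial members a median of -1.58, against -1.25 for 2397 protein-coding genes. In that range 7 of 7 cytosolic and 5 of 6 mitochondrial members were at -1 or lower, as were 62.8% of protein-coding genes. At 100 to 300 FPKM the 9 cytosolic members had a median of -1.71, which was above the protein-coding median. At 3 to 10 FPKM 4 mitochondrial members had a median of -0.37, and at 10 to 30 FPKM 3 had a median of -0.74, both close to the protein-coding values.

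Measured from the median of its own range, a cytosolic member lay lower in 10 of 18 cases (median offset -0.09) and a mitochondrial member in 7 of 14 (median offset -0.0011). The lowest offsets were those of FARS2 (-0.90), FARSB (-0.83), SARS (-0.78), IARS2 (-0.75), RARS2 (-0.69) and NARS2 (-0.61). The highest were those of IARS (0.83), CARS2 (0.78), MARS (0.69), TARS2 (0.67) and WARS (0.65). Offsets in both directions thus came from both classes. In RLKO, with ranges by untreated WT level, 8 of 18 cytosolic and 6 of 14 mitochondrial members lay below the median of their range.

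**Figure D3:**
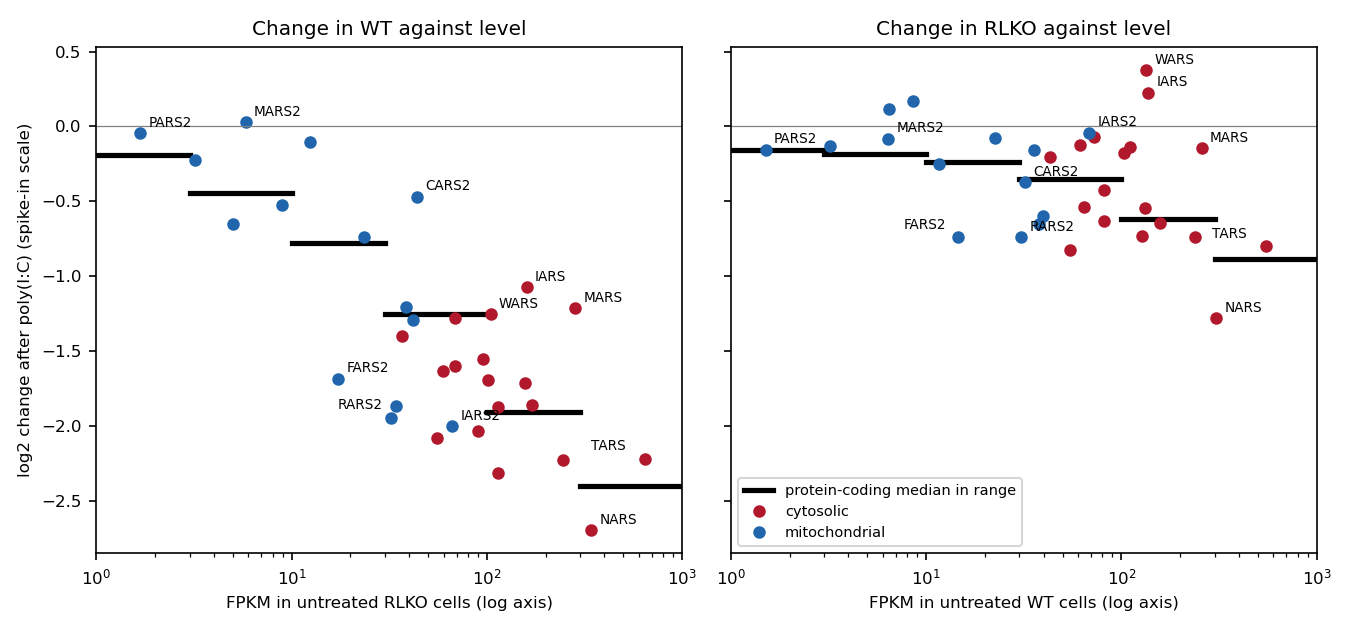
Log2 change after poly(I:C) (vertical, spike-in scale) against FPKM in the untreated cells of the other genotype (horizontal log axis), in WT (left) and RLKO (right), 1 pooled value per synthetase, cytosolic in red and mitochondrial in blue; black bars are the medians of protein-coding genes in each range of level. In WT the synthetases descend with level along the bars, and at 30 to 100 FPKM both classes are mixed.

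The 2 enzymes for the same amino acid were compared in 12 pairs, of which 10 were 1 gene with 1 gene and the other 2 set FARSA and FARSB, the subunits of the cytosolic phenylalanyl enzyme, against FARS2. The cytosolic transcript had the higher FPKM in all 12 pairs in untreated WT. In WT the cytosolic member had the lower log2 change in 9 pairs, with a median difference, cytosolic minus mitochondrial, of -0.50. The widest gaps were TARS and TARS2 (-2.11), AARS and AARS2 (-1.40), MARS and MARS2 (-1.24) and LARS and LARS2 (-1.19). The other direction was seen for IARS and IARS2 (0.93) and for FARSA and FARS2 (0.29), while HARS and HARS2 differed by 0.01. In RLKO the cytosolic member was the lower one in 5 pairs and the median difference was 0.01. The median ratio of cytosolic to mitochondrial FPKM was 7.91 in untreated and 5.72 in treated WT, and 8.81 and 7.14 in RLKO. In untreated WT this ratio was 47.7 for TARS, 18.9 for AARS, 40.2 for MARS and 14.9 for LARS, the pairs with the widest gaps. It was 20.6 for WARS and WARS2, whose gap was -0.60. Level and compartment were thus not separated in the pairs. HARS and HARS2 are read in opposite directions from starts whose annotations overlap by 436 bases, and since the sources used here do not give the strandedness of the libraries, reads in the overlap cannot be told apart.

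**Figure D4:**
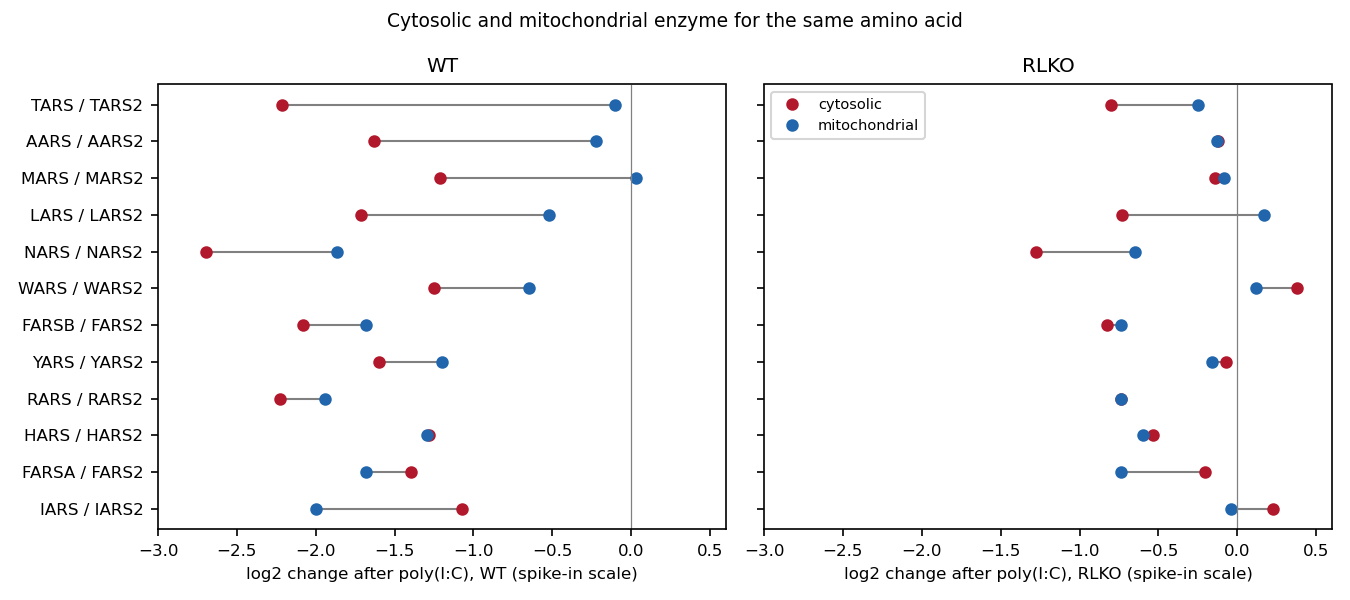
Log2 change after poly(I:C) (horizontal, spike-in scale) of the cytosolic (red) and mitochondrial (blue) enzyme for the same amino acid in WT (left) and RLKO (right), 1 pooled value per gene, pairs ordered by their gap in WT. The red point lies to the left in 9 of 12 pairs in WT and in 5 of 12 in RLKO.

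Transcript features in the deposited table also differed between the classes. The half-life, which the authors took from another study and whose unit the header does not state, ran from 8.89 to 20.1 with a median of 11.03 over the 18 cytosolic members. It ran from 2.04 to 24 with a median of 3.70 over 13 mitochondrial members, beside 4 over protein-coding genes. IARS2, one of the 2 members called lower, carried 24, which is the highest value in the table and is shared by 730 of 10450 rows. Between half-life and the WT change, Pearson's r across genes was 0.30 over 18 cytosolic members and -0.33 over 13 mitochondrial members, or 0.17 over 12 without IARS2. Over the 31 members with a value it was -0.41, and half-life and level were themselves related (r = 0.59). Between GC content and the WT change, r was 0.53 over the 18 cytosolic, 0.75 over the 14 mitochondrial members and 0.10 over 12181 protein-coding genes. DARS (37.0% GC), FARSB (38.0%), EPRS (38.1%) and RARS2 (38.3%) were low in both GC and WT change, and MARS2 (48.4%), TARS2 (48.5%) and PARS2 (49.8%) were high in both. The low-GC genes named stood at 32.4 to 114 FPKM in untreated RLKO cells and the high-GC ones at 1.67 to 12.4 FPKM. GC content and level were thus not separated. Exceptions included WARS2, with 38.1% GC and a log2 change of -0.65. Among members high in GC, FARSA (53.9%), QARS (53.4%) and AARS (49.5%) had low WT changes of -1.40, -1.55 and -1.63. These correlations are across genes, which share libraries and scaling and are not independent replicates, so they carry no p.

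**Figure D5:**
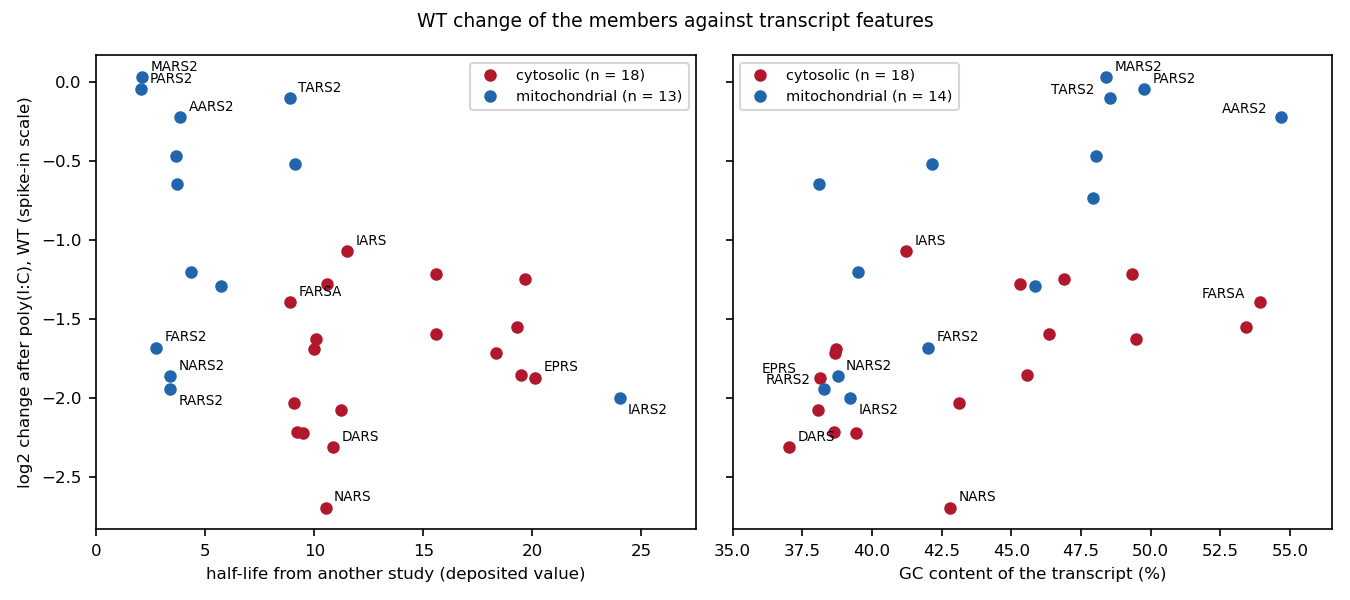
Log2 change after poly(I:C) in WT (vertical, spike-in scale) against the deposited half-life (left; unit not stated in the header) and the GC content of the transcript in percent (right), 1 pooled value per synthetase, cytosolic in red and mitochondrial in blue. Mitochondrial members are mostly at a half-life under 10 with IARS2 at 24, and changes nearer 0 tend to lie toward higher GC, with exceptions.

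Subgroups of the family were compared by their medians in WT and RLKO. The 8 enzymes of the multisynthetase complex (EPRS, IARS, LARS, MARS, QARS, RARS, KARS and DARS) had a median log2 change of -1.78 in WT and -0.48 in RLKO, and the 10 analysed cytosolic members outside it -1.66 and -0.37. The 11 analysed members listed as ATF4 targets had medians of -1.69 and -0.14, and the other 7 cytosolic members -1.85 and -0.54. GARS and KARS, whose single genes supply both compartments, had -1.69 and -1.85 in WT and -0.14 and -0.64 in RLKO, values within the range of the cytosolic class. By catalytic fold, the 16 class I enzymes of both compartments had medians of -1.23 and -0.11, and the 16 class II enzymes -1.69 and -0.57. EPRS, which also charges tRNA with proline, was counted in class I only, whereas PARS2 was counted in class II. The folds also differed in their mix of cytosolic and mitochondrial members. None of these contrasts was tested.

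Genes that work beside the synthetases also had negative medians in both genotypes on the spike-in scale, as did protein-coding genes as a whole. AIMP1, AIMP2 and EEF1E1 are the non-enzymatic scaffold of the multisynthetase complex. Their log2 changes were -2.51, -1.93 and -2.92 in WT and -1.11, -0.61 and -1.17 in RLKO. None was called, where 3.09% of protein-coding genes were called lower in WT and 0.0246% in RLKO. Measured from the protein-coding median of their range of level in untreated RLKO, the WT offsets were smaller, at -0.60, -0.68 and -1.01. EEF1E1 stood at 202 FPKM in untreated and 39.9 in treated WT cells, and at 162 and 80.9 FPKM in RLKO. Of 14 other genes of tRNA charging and aminoacyl-tRNA handling, 0 were called at a q under 0.05 in the authors' deposited table and 2 were lower in WT at an unadjusted p under 0.05, as were 12.1% of protein-coding genes. The list had medians of -1.19 in WT and -0.45 in RLKO. In that list PTRH2, a peptidyl-tRNA hydrolase, was lowest in WT (-2.28) and SEPSECS, of selenocysteine synthesis, highest (-0.17). Of 6 elongation factor genes listed under the delivery of aminoacyl-tRNA to the ribosome, which are not all carriers of it, 4 were analysed. Among these 0 were called and 2 were lower in WT at an unadjusted p under 0.05 (12.1% of protein-coding genes). EEF1A1 had -2.92 in WT and -1.06 in RLKO, and EEF1G -2.21 and -0.51.

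The amino acid response outside the synthetases was split. Of 15 listed genes 14 were analysed, and in WT 3 fell and 1 rose by the q-values of the authors' deposited table, where 3.09% of protein-coding genes fell and 4.27% rose. ASNS, the asparagine synthetase, fell by 2.94 on the log2 scale in WT (q = 0.00754 in the authors' deposited table), from 102 to 19.3 FPKM, and stood at 102 and 66.6 FPKM in RLKO. PHGDH and PSAT1, of serine synthesis, fell by 2.23 and 2.2 (q = 0.0145 and 0.0300 in the same table). ATF3, a stress-induced transcription factor, rose by 5.31 in WT (q = 0.00180) and by 4.15 in RLKO (q = 0.0107, both from the authors' deposited table), the 1 call of the list in RLKO, where 0.821% of protein-coding genes rose. ATF4 itself was at -0.39 in WT and -0.22 in RLKO, and DDIT3, which it controls, at 0.0011 and 0.44. The medians of the list were -1.46 and -0.17, near those of the ATF4-listed synthetases.

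The 4 members left out of the analysis had no usable level. CARS stood at 0.417 and 0.254 FPKM in untreated and treated WT cells and at 0.477 and 0.544 FPKM in RLKO, under the filter in every group. The lowest analysed cytosolic level in untreated cells was 37.0 FPKM (FARSA in RLKO). Why CARS was listed so low was not tested, and its entry is not read as a lack of expression. VARS, VARS2 and SARS2 are listed at 0 in all 4 groups, with no test made by the authors' software, and since the valyl enzyme of the cytosol is a gene that every cell uses, these entries are not read as absence of expression.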

How the data were processed

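Total RNA was sequenced after rRNA depletion from 12 samples in 4 groups of 3. FastQC, Trimmomatic 0.32, TopHat2 2.0.6, Bowtie2 2.0.2, Cuffdiff 2.2.1 and GRCh38.p12 come from the tools and builds listed per the submitters' processing notes. Strandedness and library scaling were not given in the sources used here. Per the file headers, the authors deposited 1 FPKM value per gene and group, with p-values and q-values for poly(I:C) against untreated cells in each genotype, and GC content in percent. Of 58763 rows, 92 were ERCC RNAs. Rows with at least 1 FPKM in some group were kept, leaving out 86 with a failed estimate (status HIDATA) and repeated identifiers. That left 22087 rows, 12181 of them protein-coding by GENCODE v29.

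Each group was divided by the median ratio of 49 ERCC rows (mean of at least 1 FPKM) to their geometric mean over groups. A pseudocount of 1 was then added before taking log2 changes, so changes of low genes are understated. Spike-in scaling puts levels relative to the added RNA, and levels per cell were not tested. In pooled RNA, fewer cells and less RNA per cell cannot be told apart. Single-sample tests planned for the case of sample values were not possible, and the authors' q-values, adjusted by them over their table, were used. Whether the 3 samples of a group came from separate cultures was not given in the sources used here, so the spread behind those tests may be technical.

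All members could be named. Levels in all 4 groups were given for called members, for the 4 lowest and 3 highest in WT and 3 highest in RLKO of each class, and for WARS, while EPRS was added after its values were seen. From related lists at most 4 genes with the most extreme WT values were named, and ATF4 and DDIT3 were added afterwards. Members and lists were chosen with earlier results of these data known. Promoters were matched by current symbol, and DARS, LARS, VARS, YARS, AARS2 and VARS2 had no entry. Some genes of the marker list are not reported here. The calculations were checked on simulated data. Alternatives were another pseudocount, other filters and ERCC rows, FPKM without spike-in scaling, median-ratio scaling and other call thresholds. Python 3.11.15 was used.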

Additional observations from a re-analysis of the deposited data

How the results depend on the processing

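All 18 cytosolic members were below 0 in WT, and below their RLKO change, under every setting tried. On the spike-in scale 8926 of 12181 protein-coding genes were also below their RLKO change. In FPKM as deposited the cytosolic median was -1.09 in WT and -0.98 for WT minus RLKO, and the mitochondrial medians were -0.13 and -0.29. With median-ratio scaling over protein-coding genes these values were -0.89, -0.90, 0.058 and -0.21. Both settings replace the spike-in factor by construction. A factor shifts all genes of a group nearly alike, so the difference between the class medians could hardly move. In WT this difference was -0.96 and -0.95 under them against -1.01 on the spike-in scale, which is no separate check of it. Mitochondrial members below 0 in WT numbered 13 of 14 on the spike-in scale, 8 in FPKM and 6 with median-ratio scaling. Members called lower in WT numbered 7 at a q under 0.1 (5.69% of protein-coding genes) and 15 at an unadjusted p under 0.05 (12.1%). In RLKO the count was 1 at an unadjusted p under 0.05 (1.86%). Of 94 single-gene values without a call, 61 moved by at least 1 SD of the ERCC log2 ratios in FPKM as deposited and 62 with median-ratio scaling. With the other pseudocount and the other ERCC rows 0 moved. The other filters do not alter the value of a member, so 0 moved there by construction. The called WT values of NARS and IARS2 kept their direction, at -2.08 and -1.40 in FPKM as deposited and -1.88 and -1.20 with median-ratio scaling. Ranges by untreated WT level, chosen after seeing the data, gave -1.63 for cytosolic and -1.58 for mitochondrial members at 30 to 100 FPKM. No paired analysis was possible because the table holds 1 pooled value per group, and leaving out single replicates could not be run for the same reason. Depth is unknown, so no limit from counting error can be given.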

Other observations

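The entries listed at 0 were not spread evenly over the genome. VARS2 and VARS lie on the same arm of chromosome 6, and of 51 protein-coding genes annotated from VARS2 to VARS, 39 (76.5%) were listed at 0 in all 4 groups, compared with 2247 of 19894 protein-coding genes in the table (11.3%). SARS2 is on chromosome 19, and MRPS12, a mitochondrial ribosomal protein gene that overlaps it, was listed at 0 in all 4 groups as well. EEF1B2 and SESN2, of the related lists, were also listed at 0 in all groups.

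Of the 36 members, 13 are overlapped by another annotated gene that reached at least 10 FPKM in some group. MARS overlaps DDIT3, which stood at 22.0 and 33.7 FPKM in untreated and treated WT cells and at 21.0 and 32.7 FPKM in RLKO. IARS contains the small nucleolar RNA gene SNORA84, listed at 493 and 143 FPKM in WT and at 270 and 86.5 FPKM in RLKO. CARS2 overlaps ING1, which stood at 4.10 and 15.2 FPKM in WT and at 4.18 and 5.49 FPKM in RLKO. YARS2 overlaps DNM1L, a mitochondrial fission gene, at 74.5 and 62.3 FPKM in WT and 89.6 and 55.3 FPKM in RLKO. Their part in the values of the synthetases was not tested.

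Among protein-coding genes at large, the median WT change on the log2 scale went from -0.45 for a deposited half-life of 4 or less to -1.66 for one above 16. At 30 to 100 FPKM in untreated RLKO cells the same medians were -1.08 and -1.60. In that range RARS2 and NARS2, with a half-life of 3.39 each, had WT values of -1.94 and -1.86. CARS2, with 3.64, had -0.47.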
